A study of Mus musculus with 2 samples.

Results

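Integrins outside the hemidesmosome were read in prostaspheres with and without Sox9, through 9 genes: Itga1, Itga2, Itga5, Itgav, Itgb1, Itgb3, Itgb5, Itgb6 and Itgb8. The genes were chosen by name, and every probe that the array design gives to one of them was taken, 24 probes of the 41174 on each array. Of these, 18 probes were bright enough to be tested, among 22731 in all, and each of the 9 genes had at least 1 tested probe. Prostaspheres are balls of prostate epithelial cells grown in Matrigel, a gel of basement membrane proteins, here from the urogenital sinus of mouse embryos at 16 days post conception. Two-colour Agilent arrays compared Sox9-expressing RNA, labelled with Cy5, with Sox9-deleted RNA, labelled with Cy3, on 2 arrays of 1 slide.

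In the genotype comparison, wild type spheres given tamoxifen (TAM) were set against ERCre+/+Sox9flox/flox spheres given TAM. In the treatment comparison, ERCre+/+Sox9flox/flox spheres given vehicle were set against ERCre+/+Sox9flox/flox spheres given TAM. Wild type below means the first of these RNAs, floxed TAM the RNA in Cy3 on either array, and floxed vehicle the RNA in Cy5 of the treatment array. TAM was used at 5 micromolar for 6 days, after 6 days in the gel, and dihydrotestosterone was in all the cultures, so that the wild type spheres had TAM as well. The Cre enzyme is carried by the ERCre allele, whose mouse line Rosa26ERCre is not restricted to 1 cell type, and it recombines the floxed Sox9 gene once TAM is present. The labels name C57/Bl6J as the background of all 4 RNAs, give no Cre allele for the wild type cells, and do not say how many embryos or cultures went into an RNA, so that the spread between arrays may be partly technical. Every log2 ratio below is Sox9-expressing over Sox9-deleted, read from the titles, genotypes, treatments and dyes in the labels. The source names in the labels, which call the Cy5 RNAs SOX9 and the Cy3 RNAs Ctrl, were not used. If those names meant the deletion, every sign would be the opposite.

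Integrins are receptors made of an alpha and a beta subunit, each of which crosses the membrane and ends in a short tail inside the cell. The head of the pair binds matrix proteins, and the tails bind talin, kindlins and other adaptors that lead to the actin cytoskeleton. Itgb1 pairs with Itga1 and Itga2 to bind collagens and with Itga5 to bind fibronectin. Itgav pairs with Itgb1, Itgb3, Itgb5, Itgb6 and Itgb8, and its pairs with Itgb6 and Itgb8 also hold the latent form of TGF-beta and help to release the active cytokine. The hemidesmosome, by which basal epithelial cells sit on laminin, is built on another pair, Itga6 with Itgb4.

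The probes are 60-base oligonucleotides, and 4 of them show what was read. The Itgb8 probe is shown because it carried the only large difference among the 9 genes. The Itga2 and Itgb6 probes lie in the coding part of the tail of the alpha and of the beta subunit. The Itgb1 probe is shown because it reads the splice form beta1D, which muscle uses. Capitals mark, for Itga2, the codons of the membrane-proximal motif that alpha tails share and, for Itgb1, the stop codon of the beta1D tail, and only the first 30 of 60 bases are given for Itgb1 and Itgb8.
Itgb8 (mm9 chr12:120401030-120401089, minus strand): gtgaacagatgaactttaatctaagcggtg
Itga2 (mm9 chr13:115626714-115626773, minus strand): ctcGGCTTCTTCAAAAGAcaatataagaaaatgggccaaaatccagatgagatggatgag
Itgb6 (mm9 chr2:60438632-60443247, minus strand, across an intron): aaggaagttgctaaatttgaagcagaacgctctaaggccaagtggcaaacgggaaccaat
Itgb1 beta1D (mm9 chr8:131250931-131255949, plus strand, across an intron): aactatggacgtaaagctggtctcTGAgtt
The Itgb8 probe was designed on a cDNA clone described as a hypothetical protein, and the array design names its gene Itgb8. Of the 3 Itgb8 probes it lies furthest in the direction of transcription. The brightest probes of the other genes lie in mm9 at chr13:115756765-115758419 (Itga1), chr15:103175022-103175081 (Itga5), chr2:83646133-83646192 (Itgav), chr8:131256492-131256551 (Itgb1), chr11:104531672-104531731 (Itgb3), chr16:33949123-33949182 (Itgb5) and chr2:60436536-60436595 (Itgb6), and no mm9 annotation was used to place them in an exon or UTR.

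The arrays as a whole set the frame for these genes. The brightest Sox9 probe had log2 ratios of 2.69 and 2.37 in the genotype and the treatment comparison, another 1.18 and 1.27, and the last -0.997 and -1.22, against the direction of the other two. Which of these probes lie in the deleted part of the gene is not given in the sources used here. Basal markers were higher in Sox9-expressing RNA (Krt5, Krt14, Krt15 and Trp63, 4 of 4 at least 2-fold on both arrays), and their summed brightness was 338200 in wild type and 104200 in floxed TAM RNA of the genotype array, and 300900 in floxed vehicle and 101300 in floxed TAM RNA of the treatment array. Stromal markers differed between the arrays: 7 of 7 were lower in wild type than in floxed TAM RNA (median log2 ratio -0.66) and higher in floxed vehicle than in floxed TAM RNA (median 0.50). Their summed brightness was 27270 in wild type against 43770 in floxed TAM RNA, and 71840 in floxed vehicle against 40190 in floxed TAM RNA. Skeletal muscle markers did the same, 4 of 4 tested, with medians of -0.99 and 1.51. Among all tested genes, 18.4% had this order of signs, and 0.377% were at least 2-fold higher on both arrays, as the basal markers were. The luminal keratins Krt8, Krt18 and Krt19 were measured in all 4 RNAs, while dim in all 4 were Pecam1 and Tek of the 4 endothelial and Ptprc, Adgre1 and Cd3e of the 6 leukocyte markers. In RNA from whole spheres, fewer cells of a type and less RNA per cell cannot be told apart.

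Itgb8 alone among the 9 subunits was higher on both arrays in the RNA that expresses Sox9, by at least 2-fold on each. The others lay within 0.52 of 0 on the log2 scale on either array. With each gene read from its brightest probe, 1 of 9 subunits was higher on both arrays, 5 were lower on both (Itga2, Itga5, Itgb1, Itgb3 and Itgb6) and 3 had opposite signs (Itga1, Itgav and Itgb5). Among all 15122 tested genes 33.9% were higher on both arrays, 33.8% lower on both and 32.4% of opposite sign. The 3 subunits of opposite sign were all lower in the genotype and higher in the treatment comparison, an order that 18.4% of the tested genes had, against 14% for the reverse. The 2-fold rule, a log2 ratio of at least 1 in size with the same sign on both arrays, took 1 of 9 subunits upward and 0 downward, against 0.377% and 0.159% of all tested genes. In limma's test of the mean over both arrays, 0 of 9 subunits passed an adjusted p of 0.05, which 0.0132% of the tested genes did. At an unadjusted p under 0.05, 1 subunit was higher (Itgb8) and 3 were lower (Itga5, Itgb3 and Itgb6), against 10.5% and 9.08% of the tested genes. By the test that the study's methods name, which takes each probe's own spread, 2 of 9 had an unadjusted p under 0.05, and 0 passed after adjustment. The share for that test was counted by probe and not by gene, at 8.49% of all tested probes. The median of the 9 means was -0.12, beside 0.0032 over all tested genes, and -0.17 for the 8 subunits without Itgb8.

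**Figure D1:**
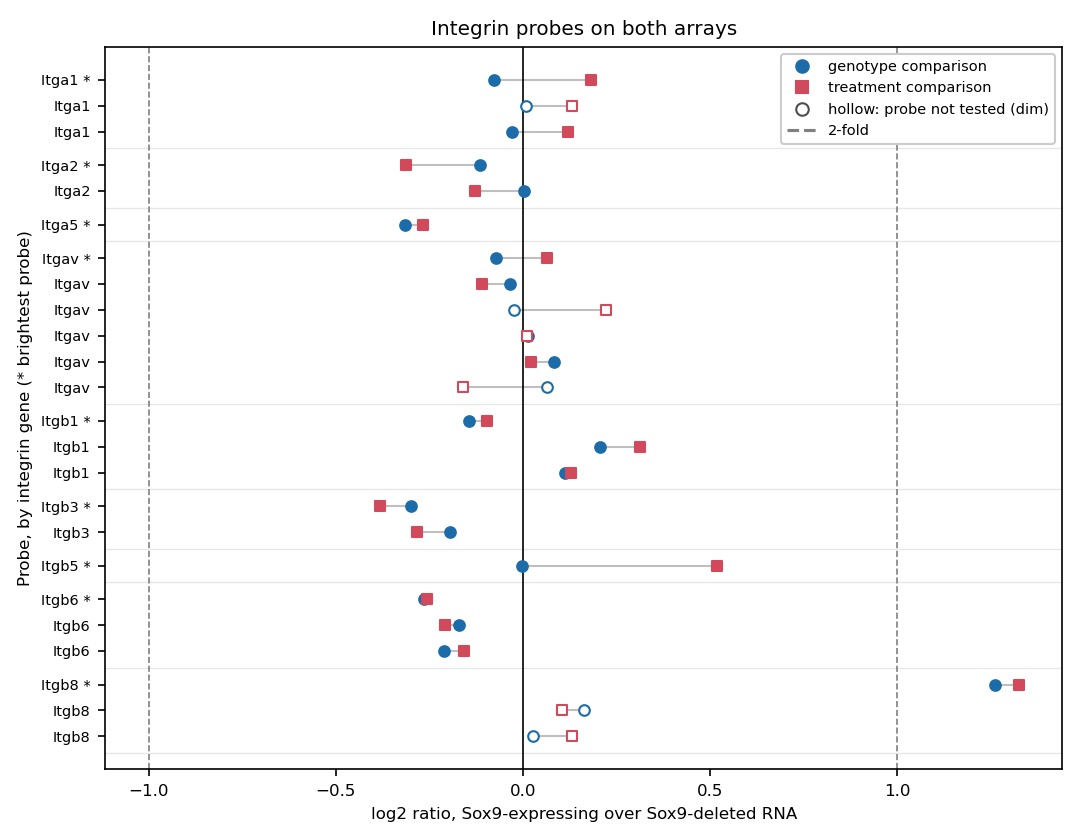
Log2 ratio (x axis, Sox9-expressing over Sox9-deleted RNA) of each of the 24 integrin probes (y axis, grouped by gene, the brightest of a gene starred) in the genotype (circles) and the treatment comparison (squares), with hollow symbols for the 6 probes too dim to be tested and dashed lines at 2-fold. The tested Itgb8 probe lies at 1.26 and 1.32, past the dashed line on both arrays, and all other probes lie between -0.38 and 0.52.

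Read by probe, 4 of the 18 tested probes were higher on both arrays, 9 were lower on both and 5 had opposite signs, where all tested probes gave 34.6%, 32.6% and 32.8%. Of the 5 with opposite signs, 4 were lower in the genotype and higher in the treatment comparison, as 17.9% of all tested probes were, and 1, of Itga2, had the reverse order, as 15% had. The 2-fold rule took 1 of the 18 upward and 0 downward, against 0.29% and 0.128% of all tested probes. Of the 4 that were higher, 2 belong to Itgb1, 1 to Itgav and 1 to Itgb8. The Itgav probe among them was not well above background in floxed TAM RNA of the genotype array. It was therefore tested only through Sox9-expressing RNA, in which it is high. The tested probes of Itgb3 (2) and Itgb6 (3) were all lower on both arrays, and so was the single probe of Itga5. Of the 18 probes, 2 were higher and 4 lower at an unadjusted p under 0.05, against 9.5% and 8.05% of all tested probes. None of the 18 passed an adjusted p of 0.05, which 0.0088% of the tested probes did, 2 in number.

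Itgb8, the partner of Itgav that binds latent TGF-beta, was the subunit with the largest difference. Its probe had a brightness of 384 in wild type and 160.4 in floxed TAM RNA on the genotype array, and of 329.6 in floxed vehicle and 132 in floxed TAM RNA on the treatment array. Both Sox9-expressing RNAs were above both Sox9-deleted RNAs. The share of all tested genes whose RNAs separate in this way was not counted, here or for any gene below. Such separation needs the same sign on both arrays, which 33.9% of all tested genes had upward and 33.8% downward. The log2 ratios were 1.26 and 1.32, with a mean of 1.29 ± 0.044 (SD, n = 2 arrays), a standard error of 0.074 and a 95% confidence interval of 1.08 to 1.50, which is a 2.45-fold difference. This was the 52nd highest mean among the 22731 tested probes, and its adjusted p was 0.0741 (limma), above the threshold. With median centring in place of loess the adjusted p was 1.93e-05, and with the values that the authors had processed it was 0.0426. With the arrays scaled to 1 spread, the treatment array gave 0.97, just under the 2-fold rule.

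The other Itgb8 probes gave less. One, at mm9 chr12:120426719-120426778, was well above background in wild type RNA only, where it was at least 1.119-fold higher than in floxed TAM RNA, and its log2 ratios were 0.16 and 0.11. That fold is the measured ratio of signals near background, with no allowance for noise. The other, at chr12:120440647-120440706, was not well above background in any of the 4 RNAs, with log2 ratios of 0.028 and 0.13. The large difference of Itgb8 therefore rests on 1 probe. The basal markers differed in the same direction as Itgb8 on both arrays, and their part in its difference was not tested.

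The other partners of Itgav were lower or mixed. Itgb6, an epithelial subunit whose pair with Itgav also activates latent TGF-beta, had a brightness of 294 in wild type against 354 in floxed TAM RNA and of 311 in floxed vehicle against 372 in floxed TAM RNA. Both Sox9-expressing RNAs were below both Sox9-deleted RNAs. Its log2 ratios were -0.27 and -0.26, with a mean of -0.26 ± 0.0065 (SD, n = 2 arrays), a confidence interval of -0.47 to -0.056 and an adjusted p of 0.223 (limma). Its other probes, of which one is the tail probe shown above, had means of -0.19 and -0.18, so that the 3 Itgb6 probes lay within 0.08 of each other.

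Itgb3, best known from platelets and osteoclasts, and a receptor for vitronectin together with Itgav, had the lowest mean of the 9. Its brightness was 195 in wild type against 240.0 in floxed TAM RNA and 183 in floxed vehicle against 238 in floxed TAM RNA. As for Itgb6, both Sox9-expressing RNAs were below both Sox9-deleted RNAs. The log2 ratios were -0.30 and -0.38, with a mean of -0.34 ± 0.058 (SD, n = 2 arrays), a confidence interval of -0.55 to -0.13 and an adjusted p of 0.184. The other Itgb3 probe had log2 ratios of -0.20 and -0.28 and an unadjusted p of 0.0366 in limma's fit. Itga2b, the platelet partner of Itgb3, was not well above background in Sox9-expressing RNA, and it was at least 1.04-fold higher in floxed TAM RNA, with a brightness of 96.7 to 103 over the 4 RNAs. Of the platelet markers Pf4 had log2 ratios of -0.46 and -0.32 and Gp9 was dim throughout, and their part in the Itgb3 values was not tested. Of the leukocyte markers, 3 of 6 were tested: Cd68, of macrophages, had -0.69 and -0.77, Lyz2 -0.90 and -0.15, and Csf1r 0.030 and -0.12. The summed brightness of all 6 was 2185 in wild type against 3638 in floxed TAM RNA and 3906 in floxed vehicle against 4476 in floxed TAM RNA. Most of that sum was Lyz2, at 1451, 2708, 3185 and 3524 in the same order. It also holds the background signals of Ptprc, Adgre1 and Cd3e, which were dim in all 4 RNAs. The part of the leukocyte markers was not tested either.

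Itgb5, the other vitronectin partner of Itgav, was level on the genotype array and higher in floxed vehicle RNA on the treatment array, a difference between the arrays that was not tested. Its brightness was 7183 in wild type and 7195 in floxed TAM RNA, and 10780 in floxed vehicle against 7525 in floxed TAM RNA. The floxed vehicle RNA was the one that stood apart, and the remaining 3 lay close together. The log2 ratios were -0.0023 and 0.52, and the mean of 0.26 ± 0.37 (SD, n = 2 arrays) had a confidence interval of -0.17 to 0.69. The stromal markers were also highest in the floxed vehicle RNA, and their part in the Itgb5 value was not tested.

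Itgav itself, the alpha chain shared by these pairs, showed no difference beyond the spread between arrays. Its brightest probe had a brightness of 1659 in wild type and 1744 in floxed TAM RNA, and of 1421 in floxed vehicle and 1360.0 in floxed TAM RNA. The arrays differed more from each other than the RNAs of an array did: the floxed TAM RNAs of the 2 arrays were 0.36 apart on the log2 scale. The log2 ratios were -0.072 and 0.063, with a mean of -0.0046 ± 0.096 (SD, n = 2 arrays) and a confidence interval of -0.23 to 0.22. A second probe on the same transcript gave -0.034 and -0.11, and another, on a cDNA clone, 0.083 and 0.022. This clone probe was not well above background in floxed TAM RNA of the genotype array, so that its value there has no exact size. The last 3 Itgav probes, on cDNA clones as well, were not well above background in any RNA. Of the 5 beta partners of Itgav, 1 was higher on both arrays (Itgb8), 3 were lower (Itgb1, Itgb3 and Itgb6) and 1 was of opposite sign (Itgb5). Over all tested genes the shares were 33.9%, 33.8% and 32.4%.

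**Figure D2:**
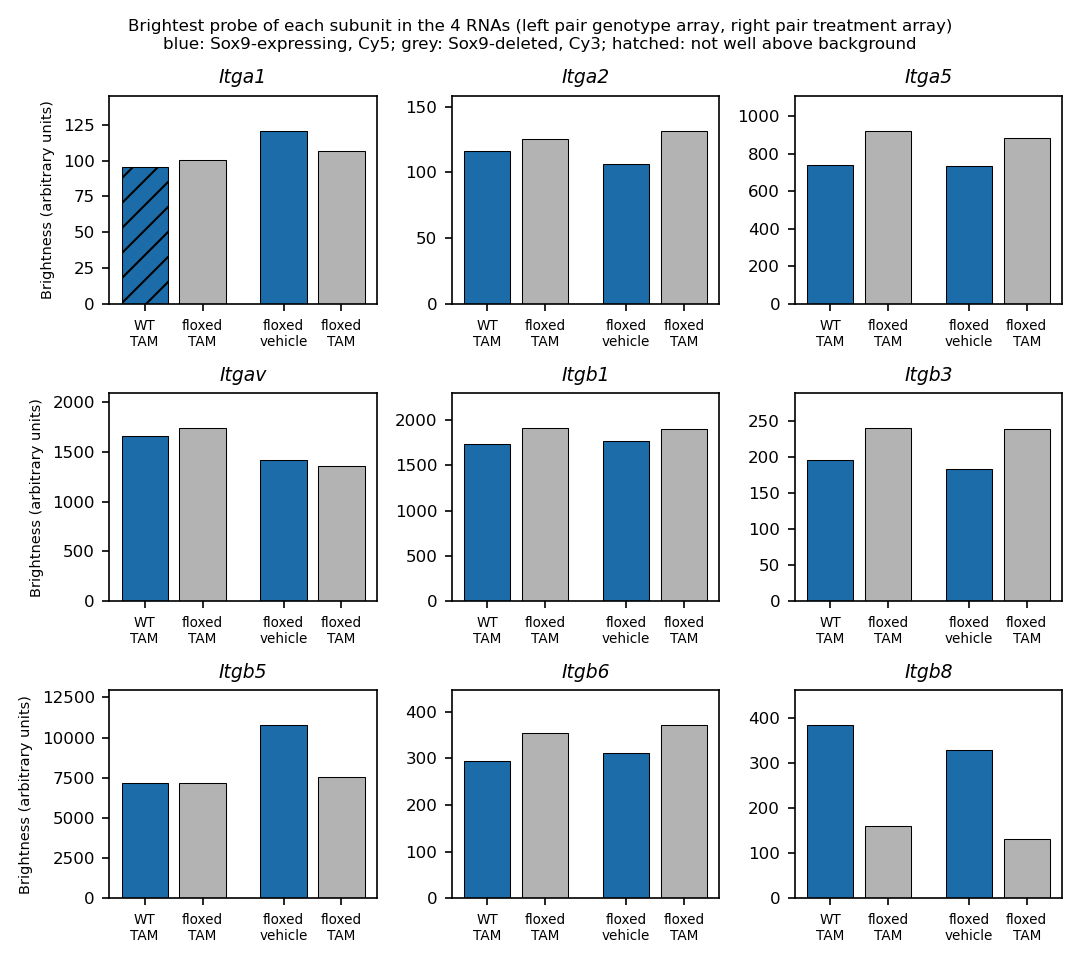
Brightness (y axis, arbitrary units, from 0, scaled separately for each gene) of the brightest probe of each subunit in the 4 RNAs, with the pair of the genotype array on the left and that of the treatment array on the right of each panel, Sox9-expressing RNA in blue and Sox9-deleted RNA in grey. Each bar is 1 RNA and has no error. In both pairs the blue bar stands above the grey bar for Itgb8 and below it for Itga2, Itga5, Itgb1, Itgb3 and Itgb6. Of all tested genes, 33.9% were higher and 33.8% lower on both arrays. For Itgb5 only the floxed vehicle bar stands out, at 10780.

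Itga5, the alpha chain of the fibronectin receptor, has 1 probe, at mm9 chr15:103175022-103175081. Its brightness was 742 in wild type against 923 in floxed TAM RNA and 736 in floxed vehicle against 886 in floxed TAM RNA. Both Sox9-expressing RNAs were below both Sox9-deleted RNAs. The log2 ratios were -0.32 and -0.27, with a mean of -0.29 ± 0.035 (SD, n = 2 arrays), a confidence interval of -0.50 to -0.083 and an adjusted p of 0.204 (limma).

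Itgb1, the beta chain of the fibronectin and collagen receptors, gave different signs with different probes. Its brightest probe is spotted 10 times on each array, of which 9 and 10 spots were used, and its log2 ratios were -0.14 and -0.097, with an SD between spots of 0.018 and 0.017. The brightness was 1734 in wild type against 1916 in floxed TAM RNA and 1773 in floxed vehicle against 1897 in floxed TAM RNA. The mean of -0.12 ± 0.033 (SD, n = 2 arrays) had a confidence interval of -0.33 to 0.087 and an adjusted p of 0.456. A second probe on the same transcript, at mm9 chr8:131246349-131246408, upstream of the first at chr8:131256492-131256551, was higher on both arrays, at 0.21 and 0.31. Its mean was 0.26 ± 0.076 (SD, n = 2 arrays), with a confidence interval of 0.040 to 0.48 and an adjusted p of 0.239, and its brightness was 1491 in wild type against 1292 in floxed TAM RNA and 1644 in floxed vehicle against 1324 in floxed TAM RNA. The beta1D probe shown above was dim, at 102 to 113 in the 4 RNAs, with log2 ratios of 0.11 and 0.13. With the brightest probe both Sox9-expressing RNAs were below both Sox9-deleted RNAs, and with the other Itgb1 probes they were above both. The sign of Itgb1 thus depended on the probe, and none of its probes passed the adjusted test.

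The collagen receptor chains Itga1 and Itga2 were dim. Itga2, which is carried by basal cells of the prostate and with Itgb1 binds collagen, had a brightness of 116 in wild type against 126 in floxed TAM RNA and 106 in floxed vehicle against 132 in floxed TAM RNA with its brightest probe, the tail probe shown above. Both Sox9-expressing RNAs were below both Sox9-deleted RNAs. The log2 ratios were -0.12 and -0.31, with a mean of -0.21 ± 0.14 (SD, n = 2 arrays) and an adjusted p of 0.327. The other Itga2 probe gave 0.0036 and -0.13, so that on the genotype array only the brightest probe was lower.

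None of the 3 Itga1 probes stood well above background in the wild type RNA, so that the size of the genotype difference is not known. With the brightest probe floxed TAM RNA read 1.05-fold higher, at a brightness of 100.6 against 95.4. That is the measured ratio of signals near background, with no allowance for noise. In the treatment comparison the brightness was 121 in floxed vehicle against 107 in floxed TAM RNA, the opposite order. The log2 ratios of the brightest probe were -0.077 and 0.18, with a mean of 0.052 ± 0.18 (SD, n = 2 arrays) and an adjusted p of 0.809, and the other tested probe gave -0.029 and 0.12. Of the 4 alpha subunits, 0 were higher on both arrays, 2 were lower and 2 were of opposite sign. Over all tested genes the shares were 33.9%, 33.8% and 32.4%, and 4 genes are too few to set apart from them.

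**Figure D3:**
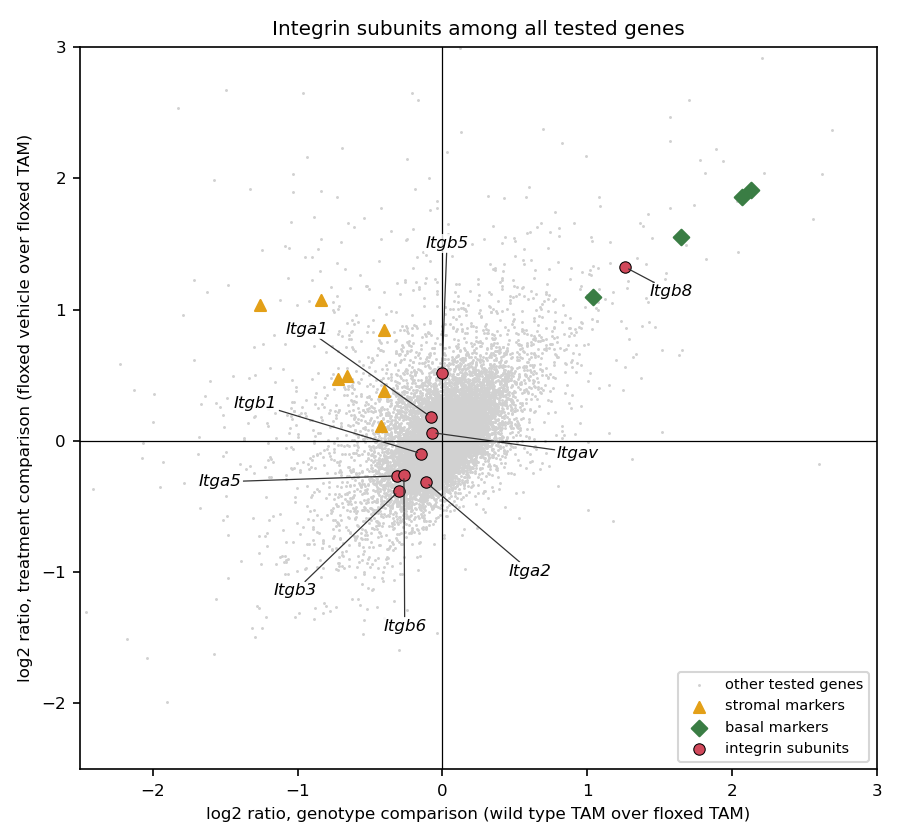
Log2 ratio of the brightest probe of each tested gene in the genotype comparison (x axis) and in the treatment comparison (y axis), with integrin subunits in red, basal markers as green diamonds, stromal markers as orange triangles and all other tested genes in grey, of which 13 lie outside the axes. Itgb8 lies at 1.26 and 1.32 among the basal markers, Itgb5 at -0.0023 and 0.52, and the remaining 7 subunits lie between -0.38 and 0.18 on both axes.

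The plot of both comparisons shows where the subunits lay among all genes. The log2 ratios of both arrays correlated across tested probes (not independent replicates) with Pearson's r = 0.447 and Spearman's rho = 0.46. For 7 of the 9 subunits the floxed TAM RNAs of the 2 arrays differed by under 0.1 on the log2 scale, the others being Itgav, at -0.36, and Itgb8, at -0.28 (treatment over genotype array). Those 2 differences come from 2 RNAs with the same genotype and treatment, and the one of Itgb8 was smaller than its log2 ratio on either array. By Euclidean distance over the 2 log2 ratios, the genes nearest to Itgb8 were Id4, an inhibitor of helix-loop-helix factors, with log2 ratios of 1.28 and 1.22, Fzd6, a Wnt receptor, with 1.16 and 1.35, and Cxcr7, a chemokine receptor, with 1.34 and 1.40, and 0 genes lay within 0.1 of it. Those nearest to Itgb3 were Nit1 (-0.31 and -0.38), Larp1 (-0.31 and -0.39) and Ppa1 (-0.31 and -0.37), in a dense region where 274 genes lay within 0.1.

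Loess normalization sets the middle of each array's log2 ratios near 0, and without it that middle was not at 0. With median centring over all spots instead of loess, the median of the tested probes was 0.0167 in the genotype and 0.379 in the treatment comparison. On that scale Itga5, Itgb1 and Itgb6 had positive log2 ratios on the treatment array (0.26, 0.48 and 0.19), Itgav had 0.62, and the count of subunits lower on both arrays was 2 in place of 5, Itga2 and Itgb3. Relative to the median of the tested probes on each array, 5 of 9 were lower on both under either way of processing, with Itga1 in place of Itgb1 under median centring, where Itgb1 lay at -0.099 and 0.10. Itgb8 was higher on both arrays under all 7 ways of processing that were compared, with means of 1.29 to 2.30.

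**Figure D4:**
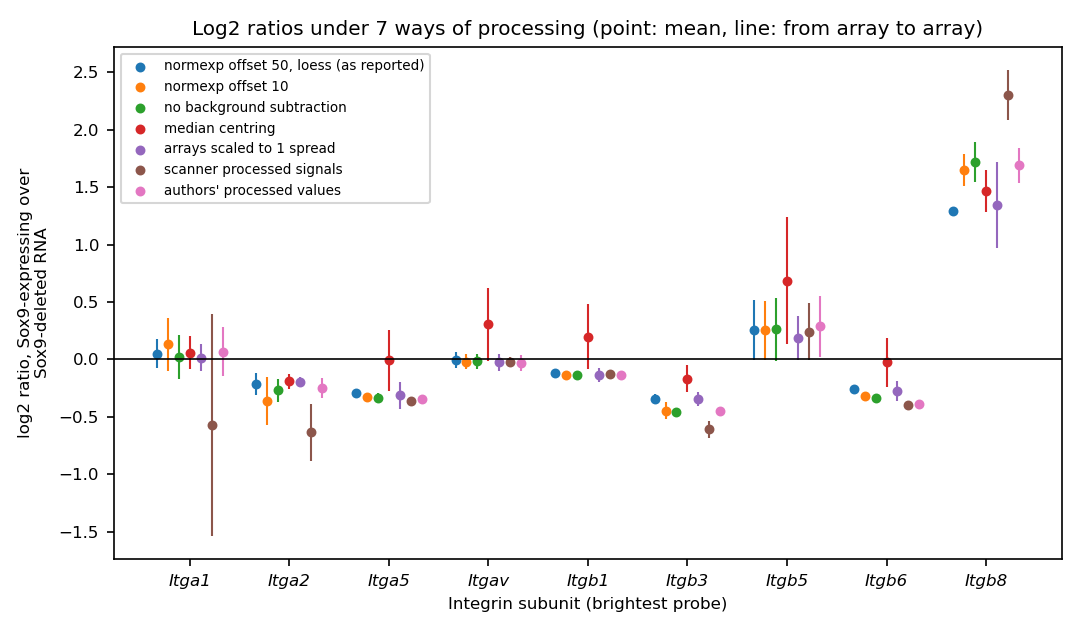
Log2 ratio (y axis) of the brightest probe of each subunit (x axis) under 7 ways of processing, where a point is the mean of the 2 arrays and a line runs from one array's value to the other's. Itgb8 lies above 0.97 under each, Itga2 and Itgb3 lie below 0 under each, and the median-centred values (red) of the others reach higher than their loess values on the treatment array.

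The integrin subunits left out of the 9 genes behaved as follows. Of 17 listed, 16 were on the array and 11 were tested, of which 3 were higher on both arrays, 4 were lower and 4 had opposite signs, with a median of -0.062. Over all tested genes the shares were 33.9%, 33.8% and 32.4%. Itga2b, among the 4 lower, was well above background only in floxed TAM RNA, so that it was tested only through the RNA in which it is high. Without it, 3 of 10 were higher on both arrays, 3 were lower and 4 had opposite signs. Itga6, which joins Itgb4 in the hemidesmosome and also pairs with Itgb1, had log2 ratios of 0.96 and 0.58, with a mean of 0.77 ± 0.27 (SD, n = 2 arrays, adjusted p = 0.138). Itgb4 had 1.15 in the genotype and 0.058 in the treatment comparison, and Itga11, a collagen receptor chain of mesenchymal cells, had -0.61 and 1.63. The lowest were Itga3, a laminin receptor chain and another partner of Itgb1, at -0.45 and -1.26, Itga9 at -0.63 and 0.0078, and Itgax, a leukocyte chain, at -0.13 and -0.24. None of the 11 passed the 2-fold rule or an adjusted p of 0.05, and 1 was higher and 1 lower at an unadjusted p under 0.05 (limma), near the 10.5% and 9.08% of all tested genes.

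Ligands of integrins split by array. Of 28 tested ligand genes of 30, 4 were higher on both arrays, 5 were lower and 19 had opposite signs, where 33.9%, 33.8% and 32.4% of all tested genes did, and the median was -0.26 in the genotype and 0.28 in the treatment comparison. The list shares Col1a1 and Col1a2 with the stromal markers, which moved the same way, and the part of stromal cells in the ligand values was not tested. The highest were Thbs1, thrombospondin (0.63 and 0.91, adjusted p = 0.118), Mfge8 (0.33 and 0.66) and Edil3, both of the latter being secreted ligands of Itgav pairs. Edil3 was not well above background in floxed TAM RNA on either array, so that it was tested only through the RNA in which it is high, and it is given as at least 1.34-fold higher in Sox9-expressing RNA (measured log2 ratios 0.27 and 0.58). The lowest were Nid1, a basement membrane linker (-0.95 and 0.21), Lama5, a laminin chain (-0.084 and -0.61), and Col6a1 (-0.78 and 0.10). At an unadjusted p under 0.05, 4 were higher and 1 was lower, against 10.5% and 9.08% of all tested genes. Without Edil3, 3 of 27 were higher on both arrays, and 3 were higher at that p.

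Since the pairs of Itgav with Itgb6 and Itgb8 act on latent TGF-beta, the genes of that pathway were read beside them. Of 11 genes tested, 3 were higher on both arrays, 6 were lower and 2 had opposite signs, with a median of -0.097. Over all tested genes the shares were 33.9%, 33.8% and 32.4%. The binding proteins that tether latent TGF-beta to the matrix were at both ends of the list: Ltbp4 had log2 ratios of 0.89 and 0.82, with a mean of 0.86 ± 0.050 (SD, n = 2 arrays, adjusted p = 0.0883), Ltbp1 had 0.64 and 0.77 (mean 0.70 ± 0.092, adjusted p = 0.105), and Ltbp2 had -0.92 and 0.16. The brightness of Ltbp4 was 1646 in wild type against 888 in floxed TAM RNA and 1608 in floxed vehicle against 911 in floxed TAM RNA, and for Ltbp4 as for Itgb8 both Sox9-expressing RNAs were above both Sox9-deleted RNAs. Tgfb2, a TGF-beta ligand, had 0.092 and 0.84. Tgfbr2, a receptor, had -0.38 and -0.22. None of the 11 passed the 2-fold rule or an adjusted p of 0.05, and 2 were higher and 2 lower at an unadjusted p under 0.05, against 10.5% and 9.08% of all tested genes.

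Inside the cell, 27 of 29 adaptor genes were tested, of which 13 were higher on both arrays, 8 were lower and 6 had opposite signs, with a median of 0.096. Over all tested genes the shares were 33.9%, 33.8% and 32.4%. Fermt1, the kindlin of epithelia, which binds beta tails, had log2 ratios of 0.64 and 0.41 (adjusted p = 0.15), Lpp had 0.43 and 0.17, and Rsu1 had 0.14 and 0.44. Paxillin (Pxn) had -0.095 and -0.64, Itgb1bp1, which binds the Itgb1 tail, -0.27 and -0.16, and Dab2 -0.39 and -0.010. Of 29 tested genes of adhesion signalling, 13 were higher on both arrays, 14 were lower and 2 had opposite signs, beside the same shares of all tested genes, with a median of -0.036. Pak1, a kinase of the cytoskeleton, had 0.52 and 0.74, Nedd9, a scaffold of focal adhesions, 0.57 and 0.47, and Cav1, caveolin, 0.43 and 0.51, while Pak2 had -0.29 and -0.41, Rap1a -0.35 and -0.21 and Cdc42 -0.35 and -0.078. In these 2 lists 0 genes passed the 2-fold rule or an adjusted p of 0.05 in limma's test, and at an unadjusted p under 0.05 the adaptors held 3 higher and 0 lower, and the signalling genes 4 higher and 2 lower, where all tested genes gave 10.5% and 9.08%. With median centring the medians were 0.34 for the adaptors and 0.23 for adhesion signalling, on a scale where the median of the tested probes over both arrays was 0.198.

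The promoter of Itgb8, as the only subunit past the 2-fold rule, is given from RefSeq (GRCm38.p6 chr12:119238227-119238526, minus strand, 250 bases before to 50 after the start), with any match to the letters ACAAAG or ACAATG, which SOX factors can bind, to be shown in capitals on either strand.
Itgb8 promoter: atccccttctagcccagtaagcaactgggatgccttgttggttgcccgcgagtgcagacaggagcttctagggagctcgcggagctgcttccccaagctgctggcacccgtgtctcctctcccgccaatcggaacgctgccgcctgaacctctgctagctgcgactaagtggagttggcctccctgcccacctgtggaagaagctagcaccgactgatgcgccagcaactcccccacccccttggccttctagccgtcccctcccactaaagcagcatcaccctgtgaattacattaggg
These letters are not in this window. Of the 9 subunits 8 had a promoter entry (9 entries), and 1 entry, of Itgb1, held ACAAAG. Among 32851 promoters of the same length, ACAAAG was in 18.7%, ACAATG in 12.6% and either in 28.6%. A match to these letters is a description of sequence and was not measured as binding.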

How the data were processed

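The authors hybridized 250 ng of amplified RNA per dye to Agilent whole mouse genome arrays and read them with Agilent Feature Extraction 10.5.1.1, which deposited, per the file headers, uncorrected mean spot intensities and median local background intensities of both channels, together with processed signals. Processed values that the authors deposited as a separate file were read as log2 ratios of Cy5 over Cy3: against the scanner's log10 ratios the slope was 3.12 and 3.14 on spots with processed intensity above 500 (11491 and 12289 spots). Its medians were -0.00989 and -0.00344, and how it was centred is not known here. Probe positions are those of the files, whose header names mm9.

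From the mean intensities, background was corrected with normexp (limma 3.58.1, R 4.3.3, offset 50), loess was done within arrays, 1639 of 45018 spots were left out as controls and 126 and 130 as outliers, and spots of a probe were averaged. Probes marked well above background on both arrays in 1 of the dyes were tested with lmFit and eBayes (mean against 0, 2-sided, Benjamini-Hochberg over 22731 probes). No array has the dyes swapped, so dye and Sox9 status cannot be told apart, and 1 residual degree of freedom leaves the spread mainly to the prior, with 2.8 degrees of freedom and an SD of 0.119. The brightest probe stood for its gene. Brightness per RNA is after Aquantile between arrays and includes the offset, which shrinks ratios of dim probes. For a probe dim in 1 RNA, an "at least" fold sets the brighter RNA against the higher of the dim probe's own signal and the lowest signal among probes well above background. In each such fold given here the dim probe's own signal was the higher. These folds are therefore measured ratios near background, with no allowance for noise. The code was tested on simulated data.

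Well above background were 53.9% (Cy5) and 55.1% (Cy3) of probes on the genotype array and 56.1% and 56.2% on the treatment array, and the number of saturated spots was 0. The number of arrays limits the precision. All 9 symbols are current in RefSeq, and the 15 probes with a RefSeq accession matched the same symbol.

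Named genes were every subunit with its probes, the highest and lowest 3 tested genes of each pathway list by mean, every list gene past the 2-fold rule, the 3 genes nearest to the highest and lowest subunit by Euclidean distance over the 2 log2 ratios, and Sox9, except for items that are not reported here. Markers and genes beyond this rule were named after their values were seen. The members, lists and tests were chosen with earlier results of these data known. Python 3.11.15, numpy 2.4.6, pandas 2.3.3, matplotlib 3.10.9 and data.table (1.17.8) were also used.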

Additional observations from a re-analysis of the deposited data

Results flagged for a closer look

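In 3 of the 9 subunits the 2 arrays had opposite signs, lower in wild type than in floxed TAM RNA and higher in floxed vehicle than in floxed TAM RNA, as 18.4% of all tested genes were. The log2 ratio of the treatment comparison was above that of the genotype comparison by 0.135 for Itgav and by 0.52 for Itgb5. For Itga1 the measured values differ by 0.257, but the wild type RNA did not lift its probe well above background, so that this difference has no exact size. With 1 array per comparison these differences were not tested. The stromal markers had the same order of signs, 7 of 7, and their part in these values was not tested.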

How the results depend on the processing

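The direction of the mean was the same for Itga2, Itga5, Itgb3, Itgb6 and Itgb8 under all the alternatives, single arrays included, while Itga1, Itgav and Itgb1 turned under at least 1 and Itgb5 was 0.26 over both arrays and -0.0023 without the treatment array. With median centring, though, Itga5 (-0.0081) and Itgb6 (-0.026) were near 0, with opposite signs on the 2 arrays. On single arrays Itga1 was also -0.077 without the treatment array and Itgav 0.063 without the genotype array. Itgav was 0.31 and Itgb1 0.20 with median centring, Itgb1 was 0.087 as the mean over its probes, and Itga1 was -0.57 with the scanner software's processed signals. Itgb8 passed the adjusted test with median centring (1.47, adjusted p = 1.93e-05) and with the authors' processed values (1.69, adjusted p = 0.0426), and its adjusted p over the alternatives ran from 1.93e-05 to 0.583. The causes were not tested.

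Over the array, the count of probes past the adjusted test, 2 as reported, was 0 with an offset of 10, without background subtraction, with arrays scaled to 1 spread, with the scanner software's signals and with the methods' test of each probe on its own spread, 522 with median centring, 68 with the authors' values and 21 with no filter on dim probes. The count past 2-fold, 95, was 148 without background subtraction, 600 with the scanner software's signals and 147 with the authors' values, and 298 to 382 on single arrays. The count at an unadjusted p under 0.05, 3990, was 2432 with median centring and 1930 with the methods' test.

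Among the 9 subunits, 1 passed the adjusted test with median centring and 1 with the authors' values. At an unadjusted p under 0.05 there were 2 in place of 4 with median centring and with the methods' test. Of the 22731 tested probes, 2432 and 1930 had such a p under these settings. With arrays scaled to 1 spread 0 passed 2-fold. Subunits higher on both arrays were 2 with median centring, with the authors' values and with the mean over probes, and 1 to 4 on single arrays, and those lower were 2 with median centring and 5 to 8 on single arrays. The shares of all tested genes with these signs were not counted for the alternatives. Over all tested genes the middle log2 ratio was -0.0092 on the genotype and 0.0115 on the treatment array. With median centring that of the tested probes was 0.379 on the treatment array. The median of -0.12 was -0.14 with an offset of 10, 0.057 with median centring, -0.13 with scaled arrays and with the authors' values, -0.37 with the scanner software's signals, -0.17 with a filter on both dyes, which leaves Itga1 without a value, and -0.0082 with the mean over probes. On single arrays it was -0.12 and -0.097.

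Of the list medians, adhesion signalling was -0.054 with an offset of 10, -0.058 without background subtraction, 0.23 with median centring, -0.0056 with scaled arrays and -0.0037 to 0.018 on single arrays. The adaptors were at 0.34 with median centring, 0.074 with scaled arrays, 0.082 with the authors' values, 0.040 with no filter on dim probes, 0.073 with the mean over probes and 0.067 to 0.082 on single arrays. The latent TGF-beta list was at 0.22 with median centring. The other integrin subunits were at -0.38 with the scanner software's signals and -0.082 to 0.0078 on single arrays. List genes past 2-fold, 0 as reported, were 1 with median centring, 2 with the scanner software's signals and 3 to 5 on single arrays.

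No paired analysis was possible because each array already holds both RNAs of its comparison and the 2 arrays form 1 group. Single-array values have no test. Dim probes (Itga1, Itga2, beta1D) lie close to background, which limits their ratios.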
